A study of Mus musculus with 11 samples.

Results

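*Gad1*, *Gad2*, *Ptprn*, *Ptprn2*, *Slc30a8* and *Ica1* encode proteins that the immune system recognises in type 1 diabetes, and their transcripts were followed in sorted mouse beta cells. The members were found by their Ensembl gene identifiers and are 6 of the 55487 genes measured in each library. RNA-seq had been done on beta cells of islets of C57BL/6 mice, which the methods describe as C57BL/6JRj males 12 weeks of age, and the number of animals behind a library is not given in the sources used here. Islets spent 20 h in culture, either with IFNγ at 50 pg/mL or with none, and were dispersed. The beta cell gate was EpCam+, CD24 low and CD71+, and the beta cells of IFNγ-treated islets were divided by PD-L1 on their surface. This gave 4 libraries of PD-L1high cells, 3 of PD-L1low cells (replicates 2 to 4) and 4 of control cells from islets without IFNγ. The methods call each n an independent biological sample.

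Type 1 diabetes is an autoimmune loss of beta cells, and antibodies against a small set of islet proteins appear in the blood before the disease does. Glutamate decarboxylase makes the transmitter GABA from glutamate, and its isoforms GAD67 and GAD65 come from the separate genes *Gad1* and *Gad2*. IA-2 (*Ptprn*) and phogrin (*Ptprn2*) are related transmembrane proteins of the phosphatase family in the membrane of insulin granules. ZnT8 (*Slc30a8*) pumps into the granules the zinc with which insulin is stored, and ICA69 (*Ica1*) is a membrane-shaping protein of the Golgi that binds PICK1 and takes part in granule formation. In humans, GAD65, IA-2 and ZnT8 are, beside insulin, the main targets of the diagnostic antibodies. IFNγ, a cytokine of the T cells that enter the islet, signals through the kinases JAK1 and JAK2 and raises antigen presentation and PD-L1, the ligand that restrains T cells.

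Library totals were 10422038 to 14742219 counts in PD-L1high cells (median 12775443.5), 11826369 to 14725111 in PD-L1low cells (median 13315113) and 10965905 to 15810803 in control cells (median 13363419). Mitochondrial genes took between 5.55% and 13.3% of the counts, and the highest share was in control replicate 1. The treatment and the sort could be seen in *Cd274*, which encodes PD-L1, at 218 ± 44.8 CPM in PD-L1high cells, 38.1 ± 8.35 CPM in PD-L1low cells and 20.4 ± 4.08 CPM in control cells (SD, n = 4, 3 and 4). CPM are counts scaled to a common library size after TMM normalization. The 9 beta cell markers summed to 63290 to 91930 CPM in PD-L1high cells, 73420 to 79060 CPM in PD-L1low cells and 62030 to 95580 CPM in control cells, and none of them was at 0 in any group. Markers of other islet cells were also present, with the lowest medians in PD-L1low cells. The 8 alpha cell markers, led by *Gcg*, summed to 562 to 1486, 350.2 to 354 and 323 to 1390 CPM in PD-L1high, PD-L1low and control cells, and the PP cell markers *Ppy* and *Pyy* to 233 to 562, 26.8 to 33.5 and 149.8 to 382 CPM. The 5 delta cell markers summed to 11.6 to 39.5, 3.51 to 9.27 and 6.82 to 33.4 CPM, and *Lepr* among them had 1 count in all. The 4 duct markers summed to 105 to 467, 208 to 228 and 126 to 208 CPM in the same order, nearly all of it *Spp1*, with *Krt19* below 1 CPM on average and *Sox9* and *Cftr* at 2 counts each over all libraries. The 5 Schwann cell and neuron markers, nearly all *Snap25*, summed to 165 to 329 CPM over all libraries. Macrophage and lymphoid markers summed to at most 4.44 CPM, stellate markers to at most 2.39 CPM and acinar and endothelial markers to at most 0.806 CPM in any library.

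The promoters of the decarboxylase pair and of the phosphatase pair are shown first, because the levels and the comparisons below turn on these pairs. Each window holds 250 bases before and 50 bases after the RefSeq start site on GRCm38.p6, and capitals mark CG dinucleotides. Of the 6 members, 5 had an entry in the promoter table, with 7 windows in all, and *Slc30a8* had none. The windows lie at chr2:70561879-70562178 on the plus strand for *Gad1*, chr2:22622077-22622376 on the plus strand for *Gad2*, chr1:75264159-75264458 on the minus strand for *Ptprn* and chr12:116485470-116485769 on the plus strand for *Ptprn2*.
Gad1: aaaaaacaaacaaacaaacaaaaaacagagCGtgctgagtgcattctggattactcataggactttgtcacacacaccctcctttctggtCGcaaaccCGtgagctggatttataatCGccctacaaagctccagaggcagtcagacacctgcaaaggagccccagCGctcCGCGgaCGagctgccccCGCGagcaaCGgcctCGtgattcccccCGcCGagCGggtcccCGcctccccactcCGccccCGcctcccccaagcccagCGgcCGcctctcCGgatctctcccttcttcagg
Gad2: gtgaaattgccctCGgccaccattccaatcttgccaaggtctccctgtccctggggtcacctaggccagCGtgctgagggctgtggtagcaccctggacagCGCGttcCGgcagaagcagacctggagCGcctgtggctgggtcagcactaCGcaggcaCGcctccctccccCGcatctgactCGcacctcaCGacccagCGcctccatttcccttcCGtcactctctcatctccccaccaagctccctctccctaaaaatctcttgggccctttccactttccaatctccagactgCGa
Ptprn: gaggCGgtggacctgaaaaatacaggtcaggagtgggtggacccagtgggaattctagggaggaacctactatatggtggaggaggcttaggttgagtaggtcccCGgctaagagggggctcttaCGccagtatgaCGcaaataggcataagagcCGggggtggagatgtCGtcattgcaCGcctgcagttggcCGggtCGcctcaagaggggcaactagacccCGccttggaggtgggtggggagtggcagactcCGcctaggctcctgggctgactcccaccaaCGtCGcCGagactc
Ptprn2: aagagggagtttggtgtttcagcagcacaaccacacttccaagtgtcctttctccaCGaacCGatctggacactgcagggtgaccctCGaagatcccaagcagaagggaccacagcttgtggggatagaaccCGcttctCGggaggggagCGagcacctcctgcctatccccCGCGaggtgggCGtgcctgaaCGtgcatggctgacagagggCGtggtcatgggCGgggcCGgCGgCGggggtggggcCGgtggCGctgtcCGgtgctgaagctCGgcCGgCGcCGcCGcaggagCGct
*Gad1* had 21 CG dinucleotides in its window and *Gad2* 14, and *Ptprn* had 14 and *Ptprn2* 24, against a median of 7 over all 32817 promoter windows. Of these windows, 75.2% had fewer than *Gad1*, 63.7% fewer than *Gad2* or *Ptprn* and 80.0% fewer than *Ptprn2*. A further *Ptprn* window, at chr1:75263722-75264021, had 15 and is not printed.

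Beta cells carried 5 of the 6 transcripts at readily measured levels, and *Gad2* was close to absent. Levels of different genes were compared in TPM, the unit of the authors' RSEM output that is scaled to transcript length. *Slc30a8* was the highest with 381 ± 72.2 TPM over all libraries (SD, n = 11), and *Ptprn* followed with 240 ± 51.1 TPM and *Ptprn2* with 186 ± 37.5 TPM. *Ica1* averaged 51.2 ± 6.29 TPM and *Gad1* 34.9 ± 5.94 TPM. Among 12562 protein-coding genes that were tested, *Slc30a8* ranked 75, *Ptprn* 140, *Ptprn2* 215, *Ica1* 1319 and *Gad1* 2111 by mean TPM. The genes of the granule membrane proteins thus stood above those of the enzyme and the Golgi protein. The upper neighbours did not separate fully: *Slc30a8* was above *Ptprn* in 10 of 11 libraries and *Ptprn* above *Ptprn2* in 10 of 11. *Ptprn2* was above *Ica1*, and *Ica1* above *Gad1*, in all 11 libraries. The spread of *Ica1* over the libraries was the smallest of the measured members on the CPM scale, with a coefficient of variation of 9.92%, against 12.8% for *Ptprn2* and 15.7% to 16.5% for *Gad1*, *Slc30a8* and *Ptprn*.

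**Figure D1:**
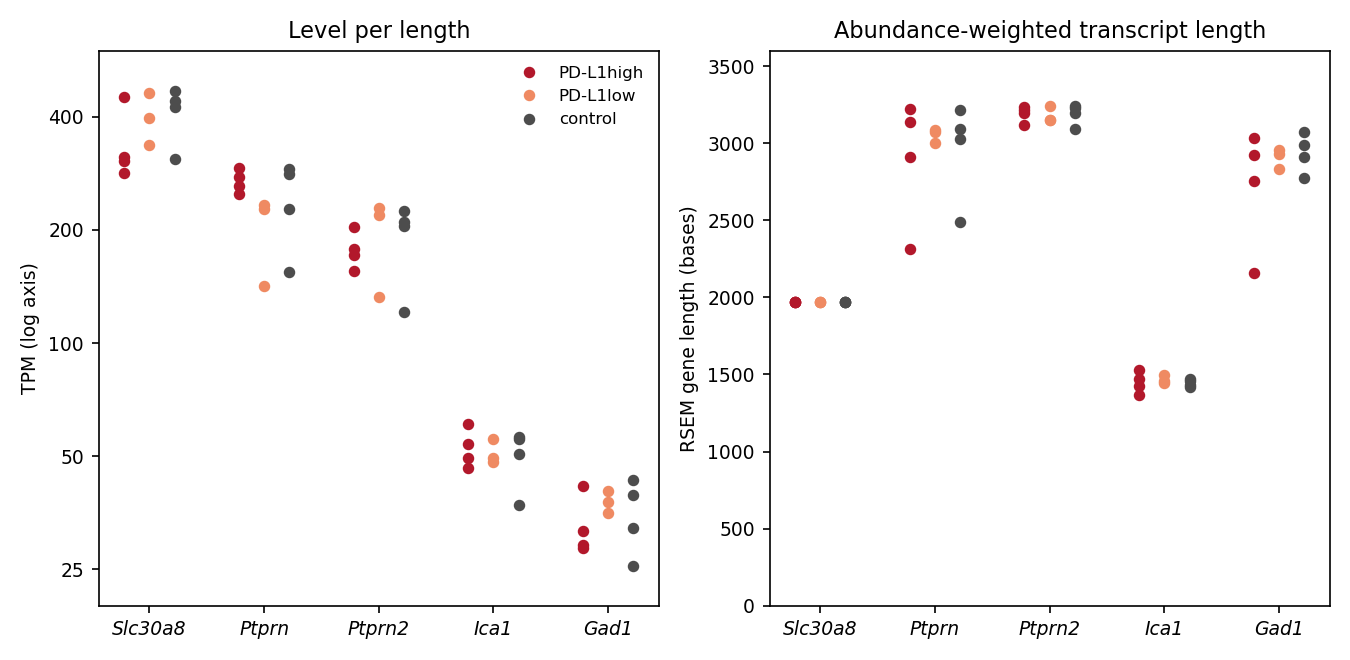
TPM of each measured member on a log axis (left) and the gene length that RSEM used, in bases (right), with 1 point per library in red for PD-L1high, orange for PD-L1low and grey for control cells. *Slc30a8*, *Ptprn* and *Ptprn2* lie between 121 and 468 TPM and *Ica1* and *Gad1* between 25.5 and 60.8 TPM. At right, PD-L1high replicate 4 has a length of 2161 bases for *Gad1* and 2313 bases for *Ptprn*, the lowest of the libraries for both genes.

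*Gad2*, on chromosome 2 from 22622205 to 22693874 of GRCm38 (plus strand), encodes GAD65. Its counts were 0, 3, 0 and 0 in PD-L1high replicates 1 to 4, 1, 0 and 0 in PD-L1low replicates 2 to 4, and 0, 1, 2 and 0 in control replicates 1 to 4. The gene had no read in 7 of 11 libraries, and no group stood above another. All 7 counts together come to 0.0486 CPM of the raw library totals, with an exact Poisson interval of 0.0195 to 0.100 CPM that covers counting error only. A count of 0 in 1 library still allows up to 3 counts, or 0.190 to 0.288 CPM depending on the library. *Gad2* did not pass the filter on low counts. In a fit without that filter, edgeR's adjusted p for it was 1 in each of the 3 comparisons. In the same libraries *Gad1* had 13763 counts.

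*Gad1* encodes GAD67 and lies on chromosome 2 from 70553072 to 70602014 (GRCm38, plus strand). Its level was 67.0, 82.9, 78.5 and 93.7 CPM in PD-L1high replicates 1 to 4, 101, 107 and 118 CPM in PD-L1low replicates 2 to 4, and 93.0, 94.2, 107 and 109 CPM in control replicates 1 to 4. All 4 PD-L1high libraries were below every PD-L1low library, and 3 of them were also below every control library. Groups that do not overlap in this direction were found for 3.59% of the tested genes in PD-L1high versus PD-L1low cells. No such share was counted for 3 of 4 libraries below every control library. The log2 fold change was -0.37 in PD-L1high versus PD-L1low cells (SE 0.111, 95% interval -0.61 to -0.14), with an adjusted p of 0.258 in edgeR's quasi-likelihood test. Against control cells it was -0.33 in PD-L1high cells (SE 0.100, 95% interval -0.54 to -0.12; edgeR adjusted p = 0.256) and 0.04 in PD-L1low cells (95% interval -0.19 to 0.28; edgeR adjusted p = 1). The difference was therefore not called in any comparison after adjustment over all genes.

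The *Gad1* difference depended on the scale. RSEM weighted the lengths of the 8 annotated transcripts of *Gad1* by their abundance, and this gave 2161 bases in PD-L1high replicate 4, against 2753 to 3070 bases in the other libraries. On the TPM scale that library had the highest *Gad1* level of its group, 41.6 TPM, beside 28.5, 31.5 and 29.1 TPM in PD-L1high replicates 1 to 3 and 37.8, 40.3 and 35.3 TPM in PD-L1low cells, so that the groups overlapped. Control replicates 1 to 4 had 25.5, 32.2, 43.1 and 39.5 TPM of *Gad1*, and replicate 1, the lowest of all libraries, had a length of 2913 bases. On log2(TPM + 1), limma gave -0.12 for PD-L1high versus PD-L1low cells (adjusted p = 0.973) and -0.09 for PD-L1high versus control cells (adjusted p = 0.989). Without PD-L1high replicate 4, the fold change in counts was -0.40 and -0.36 (edgeR adjusted p = 0.354 and 0.32). The part of the length in the TPM values was not tested. *Slc30a8*, at 1971 bases in every library, had -0.28 on log2(TPM + 1) in PD-L1high versus control cells (limma adjusted p = 0.989), against -0.39 in counts. *Gad1os*, an antisense gene at the same locus, had at most 1 count in any library.

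*Slc30a8*, with 1 annotated transcript on chromosome 15 from 52295553 to 52335798 (GRCm38, plus strand), encodes ZnT8. Its level was 465, 736, 583 and 575 CPM in PD-L1high replicates 1 to 4, 796, 674 and 749 CPM in PD-L1low replicates 2 to 4, and 731, 839, 750 and 739 CPM in control replicates 1 to 4. In PD-L1high cells 3 of the 4 libraries were below every library of both other groups, and replicate 2 lay within their range. The share of tested genes with this pattern was not counted. The log2 fold change in PD-L1high versus control cells was -0.39 (SE 0.105, 95% interval -0.61 to -0.17), 0.763 of the control level, with an adjusted p of 0.156 in edgeR's test. It was called by DESeq2 with the replicate number in the model (-0.39, adjusted p = 0.00894) and by limma-voom (-0.39, adjusted p = 0.0443). It was not called by DESeq2 without the replicate number (-0.38, adjusted p = 0.216) or in any other alternative. In PD-L1high versus PD-L1low cells it was -0.28 (SE 0.116, edgeR adjusted p = 0.541), and in PD-L1low versus control cells -0.11 (95% interval -0.37 to 0.14, edgeR adjusted p = 1).

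*Ptprn* encodes IA-2 and lies on chromosome 1 from 75247027 to 75264502 (GRCm38, minus strand). Its level was 648, 700.1, 812 and 711 CPM in PD-L1high replicates 1 to 4, 638, 647 and 504 CPM in PD-L1low replicates 2 to 4, and 475, 698, 790.3 and 810.4 CPM in control replicates 1 to 4. Every PD-L1high library was above every PD-L1low library, by 648 against 647 CPM at the nearest, while control cells spanned both groups. Groups that do not overlap in this direction were found for 4.41% of the tested genes. The log2 fold change was 0.38 in PD-L1high versus PD-L1low cells (SE 0.138, 95% interval 0.08 to 0.67; edgeR adjusted p = 0.464). In PD-L1low versus control cells it was -0.30 (SE 0.136, 95% interval -0.59 to -0.02; edgeR adjusted p = 1), and all 3 PD-L1low libraries were below the control mean. In PD-L1high versus control cells it was 0.07 (95% interval -0.19 to 0.33; edgeR adjusted p = 0.924), and the sign turned without control replicate 1 (-0.055) or without PD-L1high replicate 1 (-0.052). *Gm28294*, an antisense gene inside *Ptprn*, had 50 counts over all libraries, against 97252 for *Ptprn*.

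*Ptprn2* encodes phogrin and spans chromosome 12 from 116485720 to 117276849 (GRCm38, plus strand), the longest locus of the group. Its level was 459, 575, 546 and 526 CPM in PD-L1high replicates 1 to 4, 661, 622 and 511 CPM in PD-L1low replicates 2 to 4, and 472, 632, 649 and 637 CPM in control replicates 1 to 4. All 4 PD-L1high libraries were below the means of both other groups, but the ranges overlapped, and the share of tested genes with this pattern was not counted. The log2 fold change was -0.18 in PD-L1high versus control cells (95% interval -0.39 to 0.04; edgeR adjusted p = 0.74), -0.08 in PD-L1low versus control cells (95% interval -0.32 to 0.16; edgeR adjusted p = 1) and -0.10 in PD-L1high versus PD-L1low cells (95% interval -0.34 to 0.15; edgeR adjusted p = 0.871). Genes annotated inside or across *Ptprn2* on the other strand, *Gm10421*, *Gm5441* and *Gm48119*, had 1478, 1479 and 745 counts in all, against 82417 for *Ptprn2*.

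**Figure D2:**
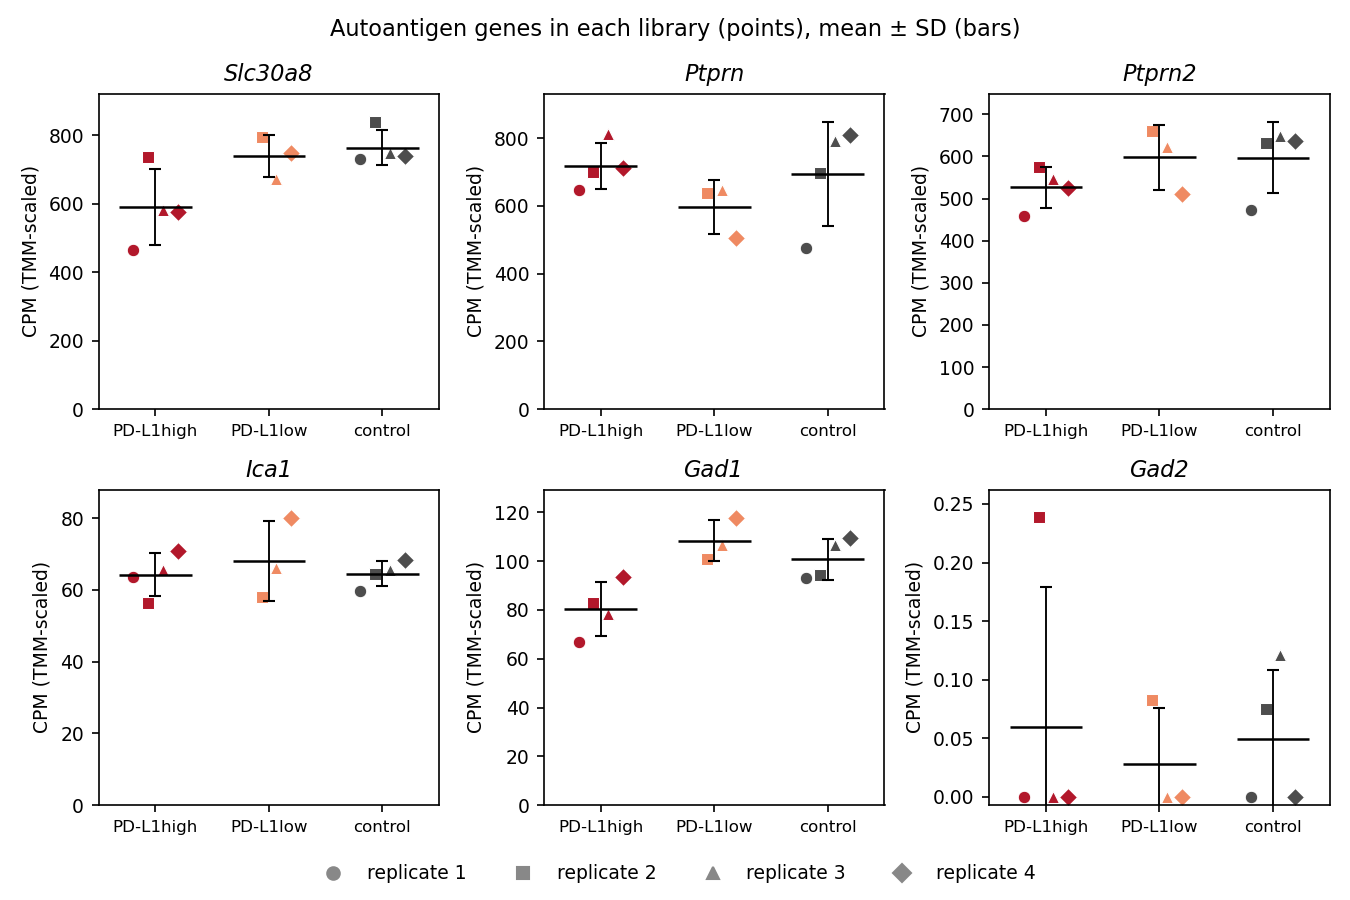
CPM on the TMM-scaled library size of each member by group, with 1 point per library, its shape giving the replicate number, and bars for the mean ± SD (n = 4, 3 and 4; the SD bars of *Gad2* run below 0 and end at the axis). The PD-L1high points of *Gad1* lie at 67.0 to 93.7 CPM, under the PD-L1low points at 101 to 118 CPM, and those of *Ptprn* lie at 648 to 812 CPM, over the PD-L1low points at 504 to 647 CPM.

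The fold changes of the phosphatase genes had opposite signs between the sorted populations, and their ratio within a library does not depend on the library size. The ratio was chosen with its values in view and is given as a description. *Ptprn* counts divided by *Ptprn2* counts were 1.41, 1.22, 1.49 and 1.35 in PD-L1high replicates 1 to 4, 0.965, 1.04 and 0.986 in PD-L1low replicates 2 to 4, and 1.01, 1.11, 1.22 and 1.27 in control replicates 1 to 4. The means were 1.37 ± 0.114 in PD-L1high cells, 0.997 ± 0.0385 in PD-L1low cells and 1.15 ± 0.118 in control cells (SD, n = 4, 3 and 4). The PD-L1high and PD-L1low libraries did not overlap, and control libraries lay between and across them. *Ptprn* CPM alone did not overlap between these groups either, as was found for 4.41% of the tested genes, so the ratio is not a separate result. How many other pairs of genes have such a ratio was not counted. In TPM of the same libraries the ratio was 1.22 to 1.88 in PD-L1high cells, 0.993 to 1.07 in PD-L1low cells and 1.11 to 1.34 in control cells. The PD-L1high and PD-L1low libraries did not overlap on this scale.

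**Figure D3:**
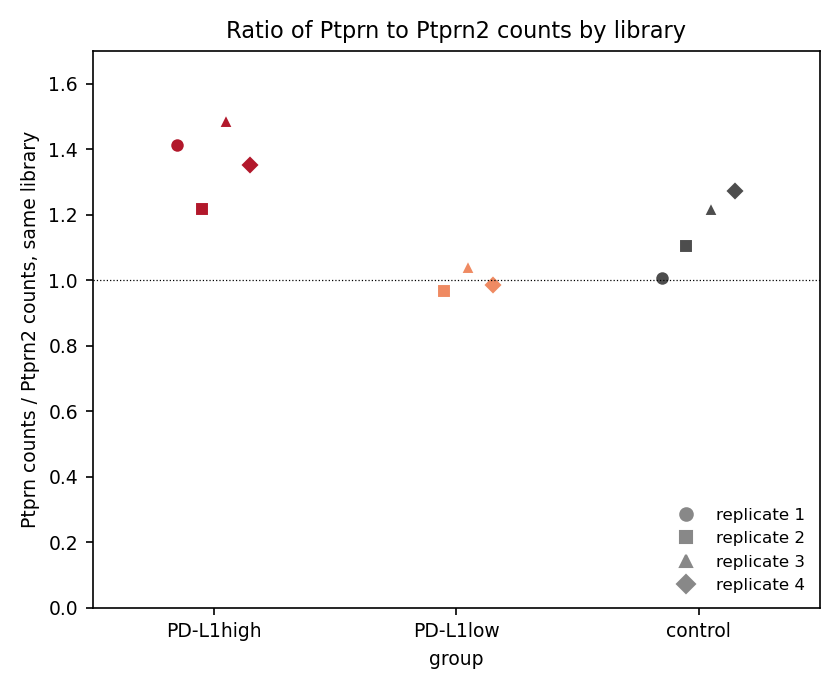
Ratio of *Ptprn* to *Ptprn2* counts in each library (vertical axis, no unit) by group, with the replicate number given by the shape of the point and a dotted line at a ratio of 1. PD-L1high libraries lie at 1.22 to 1.49, PD-L1low libraries at 0.965 to 1.04 and control libraries at 1.01 to 1.27.

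*Ica1*, on chromosome 6 from 8630527 to 8778488 (GRCm38, minus strand), has 12 annotated transcripts. Its level was 63.7, 56.4, 65.7 and 70.9 CPM in PD-L1high replicates 1 to 4, 58.1, 66.1 and 80.0 CPM in PD-L1low replicates 2 to 4, and 59.8, 64.4, 65.4 and 68.3 CPM in control replicates 1 to 4. The 3 groups lay across each other. The log2 fold change was -0.01 in PD-L1high versus control cells (95% interval -0.24 to 0.21), 0.05 in PD-L1low versus control cells (95% interval -0.20 to 0.30) and -0.06 in PD-L1high versus PD-L1low cells (95% interval -0.31 to 0.19), with edgeR adjusted p of 0.99, 1 and 0.927. These intervals reach from -0.31 to 0.30 on the log2 scale, so smaller changes in either direction are not excluded by them.

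None of the 5 members that could be tested was called at an adjusted p under 0.05 in edgeR's test. Calls were made for 0.991% of the 16252 tested genes in PD-L1high versus control cells, 0.08% in PD-L1low versus control cells and 0.732% in PD-L1high versus PD-L1low cells. Since the members were chosen with earlier results of these data known, the counts at an unadjusted p that follow are a description only. At an unadjusted p under 0.05, 2 of the 5 members were lower in PD-L1high than in control cells (*Slc30a8* and *Gad1*), where 3.52% of all tested genes were. In PD-L1low versus control cells 1 member was lower, *Ptprn*, against 1.11% of all tested genes. In PD-L1high versus PD-L1low cells 2 were lower, *Gad1* and *Slc30a8*, and 1 was higher, *Ptprn*, against 4.27% and 4.24% of all tested genes. Some of these members did not keep an unadjusted p under 0.05 in other fits. *Ptprn* in PD-L1low versus control cells lost it in 10 of 23 alternatives, among them those without control replicate 4 (log2 fold change -0.18, against -0.30 with all libraries), without PD-L1low replicate 4 (-0.19) and with no replicate block (-0.22). In PD-L1high versus PD-L1low cells *Ptprn* lost it in 4, among them those without PD-L1low replicate 4 (0.26) and with no replicate block (0.27), and *Slc30a8* in 5, of which 4 left out 1 library. *Gad1* in both comparisons of PD-L1high cells and *Slc30a8* in PD-L1high versus control cells lost it only on log2(TPM + 1), among these alternatives. The median log2 fold change of the 5 members was -0.18, -0.08 and -0.10 in these 3 comparisons, beside -0.019, 0 and -0.004 over all tested genes. This median was the value of *Ptprn2* each time, and 1, 2 and 1 of the 5 members had a positive fold change. The comparisons share libraries, so their values are not independent. DESeq2 and limma-voom, each with the replicate number in the model, called 1 member, *Slc30a8*, in PD-L1high versus control cells, where each of them called 1.53% of the tested genes, and none in the other comparisons.

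**Figure D4:**
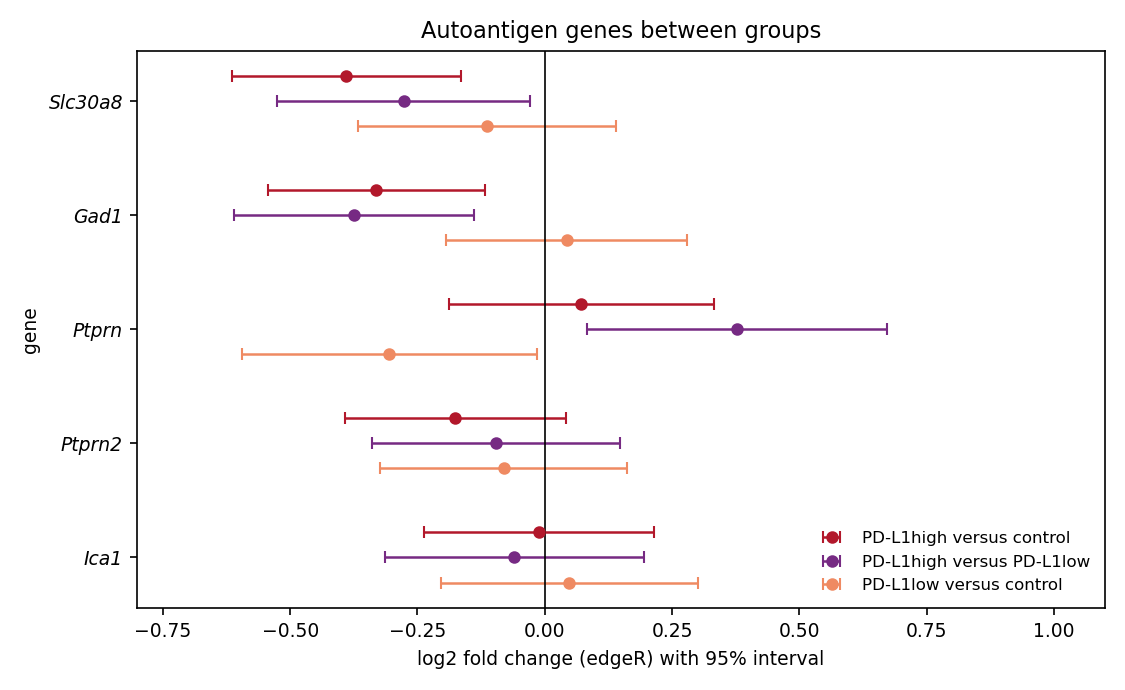
Log2 fold change (horizontal axis) of each tested member with its 95% interval from edgeR, for PD-L1high versus control (red), PD-L1high versus PD-L1low (purple) and PD-L1low versus control cells (orange). The intervals of *Slc30a8* and *Gad1* for both PD-L1high comparisons lie below 0, and those of *Ptprn* lie above 0 for PD-L1high versus PD-L1low cells and below 0 for PD-L1low versus control cells, before any adjustment over the 16252 genes.

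These are sorted populations, and a lower share of beta cells in a sort and less of a transcript per beta cell cannot be told apart in bulk RNA. The PP cell markers *Ppy* and *Pyy* were higher in PD-L1high than in PD-L1low cells (log2 fold changes of 4.16 and 2.96, edgeR adjusted p = 1.6e-10 and 4.04e-07), as were the alpha cell marker *Gcg* (2.37, edgeR adjusted p = 0.0162) and the delta cell marker *Sst* (2.42, edgeR adjusted p = 0.00135), in the same comparison in which *Gad1* and *Slc30a8* had negative and *Ptprn* a positive fold change. *Ppy* was also higher in PD-L1high than in control cells (0.67, edgeR adjusted p = 0.00182), the comparison in which DESeq2 and limma-voom called *Slc30a8*. In PD-L1low versus control cells, where *Ptprn* had a negative fold change, *Ppy* and *Pyy* were lower (-3.49 and -2.76, edgeR adjusted p = 1.32e-09 and 1.01e-06). *Gcg* and *Sst* had -1.80 and -1.64 there and were not called by edgeR (adjusted p = 0.239 and 0.153). DESeq2 with the replicate number called *Gcg*, *Sst* and the alpha cell marker *Ttr* in that comparison, and limma-voom called *Sst*. The part of these markers in the members' values was not tested. None of the 9 beta cell markers was called in any of the 3 comparisons in edgeR's test, and 1 of them, the glucose transporter gene *Slc2a2*, had an unadjusted p under 0.05, with a log2 fold change of -0.24 in PD-L1high versus control cells (edgeR adjusted p = 0.543). In that comparison 3 of the 9 had a positive and 6 a negative fold change. Against PD-L1low cells, 7 were positive and 2 negative in PD-L1high cells. All 9 were negative in PD-L1low versus control cells.

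No gene of GABA metabolism was called by edgeR, and most were at low level. Of 27 genes for the synthesis, breakdown, transport and receptors of GABA, *Gad1* and *Gad2* included, 9 passed the filter and 0 were called in any comparison, with 2, 1 and 3 at an unadjusted p under 0.05 in edgeR's test in PD-L1high versus control, PD-L1low versus control and PD-L1high versus PD-L1low cells. *Gad1* was among these in both comparisons of PD-L1high cells, and the others were *Aldh5a1* and *Gabbr1*. In PD-L1high versus control cells the 2 were lower, against 3.52% of all tested genes. In PD-L1low versus control cells the 1 was lower, against 1.11%. In PD-L1high versus PD-L1low cells 2 were lower and 1 was higher, against 4.27% and 4.24%. The same shares apply to the lists below. *Abat*, the GABA transaminase, had 145 ± 17.7 CPM in PD-L1high, 154 ± 7.55 CPM in PD-L1low and 146 ± 30.9 CPM in control cells (SD), which overlap. *Aldh5a1*, the dehydrogenase that completes GABA breakdown, had 113 ± 11.2, 89.4 ± 15.6 and 116 ± 16 CPM in PD-L1high, PD-L1low and control cells, with a log2 fold change of -0.44 in PD-L1low versus control cells (SE 0.113, edgeR adjusted p = 0.594) and 0.40 in PD-L1high versus PD-L1low cells (SE 0.113, edgeR adjusted p = 0.208). *Gabbr1*, a subunit of the GABA-B receptor, had 17.9 ± 3.07, 24.6 ± 4.98 and 26.1 ± 11.1 CPM in PD-L1high, PD-L1low and control cells, with a log2 fold change of -0.65 in PD-L1high versus PD-L1low cells (edgeR adjusted p = 0.49). DESeq2 and limma-voom with the replicate number called no gene of GABA, zinc import or metallothioneins and none of the further autoantigen genes below. *Slc32a1*, the vesicular transporter of GABA, had no count in any library.

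Of the 10 zinc exporter genes of the SLC30 family, 7 passed the filter and 0 were called by edgeR, with *Slc30a8* alone at an unadjusted p under 0.05. *Slc30a8* was the highest of them at 381 TPM, against 50.7 TPM for *Slc30a9*, 37.7 TPM for *Slc30a5* and 25.02 TPM for *Slc30a7*, and it had the smallest p of the family in both comparisons of PD-L1high cells. *Slc30a1*, the exporter of the plasma membrane, had 53.3 ± 7.80 CPM in PD-L1high, 53.1 ± 5.67 CPM in PD-L1low and 45.7 ± 2.30 CPM in control cells (SD), with log2 fold changes against control of 0.21 and 0.25 (edgeR adjusted p = 0.739 and 1). Of the 14 zinc importers of the SLC39 family, 10 passed and 0 were called by edgeR. *Slc39a10* was the only one at an unadjusted p under 0.05 in any comparison, with a log2 fold change of -0.46 in PD-L1low versus control cells (SE 0.160, edgeR adjusted p = 1). Of 4 metallothioneins, the proteins that buffer cellular zinc, 3 passed and 0 were called by edgeR, with *Mt1* and *Mt2* higher at an unadjusted p under 0.05 in PD-L1high versus control cells, where 4.13% of all tested genes were. *Mt1* had 519 ± 172, 461 ± 198 and 388 ± 75.2 CPM and *Mt2* 216 ± 108, 173 ± 92.0 and 140.0 ± 26.1 CPM in PD-L1high, PD-L1low and control cells, and their log2 fold changes in PD-L1high versus control cells were 0.38 and 0.52 (edgeR adjusted p = 0.553 and 0.53).

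The list of the secretory granule and of the partners of ICA69 held 20 genes, *Ptprn*, *Ptprn2* and *Ica1* included. All 20 passed the filter and 0 were called by edgeR. At an unadjusted p under 0.05 in edgeR's test, 1 was higher in PD-L1high versus control cells, against 4.13% of all tested genes. In PD-L1low versus control cells 1 was lower, *Ptprn*, against 1.11%. In PD-L1high versus PD-L1low cells 2 were higher, *Ptprn* among them, and 1 was lower, against 4.24% and 4.27%. DESeq2 with the replicate number called 1 of the 20 genes, *Chgb*, in PD-L1high versus control cells, and limma-voom with the replicate number called 0. *Chgb*, a granin that packs the granule core, had 1337 ± 40.0 CPM in PD-L1high, 1091 ± 156 CPM in PD-L1low and 998 ± 236 CPM in control cells (SD), with a log2 fold change of 0.45 in PD-L1high versus control cells (SE 0.133, edgeR adjusted p = 0.231). *Ica1l*, the paralogue of *Ica1*, had 17.0 ± 3.12, 23.2 ± 5.35 and 20.7 ± 4.23 CPM in PD-L1high, PD-L1low and control cells, with a log2 fold change of -0.52 in PD-L1high versus PD-L1low cells (edgeR adjusted p = 0.537). The ICA69 partners *Pick1* and *Rab2a* had log2 fold changes of -0.09 and 0.13 in PD-L1high versus control cells (edgeR adjusted p = 0.928 and 0.847).

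Of 10 further islet autoantigen genes, 9 passed the filter and 0 were called by edgeR, with *Tspan7* alone at an unadjusted p under 0.05, and *Prph*, the neuronal filament gene, had no count. *Tspan7*, a tetraspanin recognised by islet antibodies, had 213 ± 34.2 CPM in PD-L1high, 188 ± 11.1 CPM in PD-L1low and 204 ± 36.8 CPM in control cells (SD), with a log2 fold change of 0.29 in PD-L1high versus PD-L1low cells (SE 0.112, edgeR adjusted p = 0.489). *Hspd1*, the mitochondrial chaperonin HSP60, had 232 ± 9.24, 221 ± 33.4 and 196 ± 37.3 CPM in PD-L1high, PD-L1low and control cells, with a log2 fold change of 0.26 in PD-L1high versus control cells (SE 0.122, edgeR adjusted p = 0.65). The insulin genes *Ins1* and *Ins2* had log2 fold changes of 0.07 and 0.03 in PD-L1high versus control cells (edgeR adjusted p = 0.942 and 0.976) and of -0.19 each in PD-L1low versus control cells (adjusted p = 1 each in edgeR). The median log2 fold change of the 9 genes was 0.03 in PD-L1high versus control, -0.13 in PD-L1low versus control and 0.15 in PD-L1high versus PD-L1low cells, beside -0.019, 0 and -0.004 over all tested genes.

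The genes whose levels were most like each member over the 11 libraries were looked up among 8844 genes with a mean of at least 10 CPM, by Pearson's correlation of log2 CPM. The members themselves were left out of the ranking. These correlations describe 11 libraries that share their groups and their scaling. Picking the 3 highest of so many genes raises the correlations by itself. They were 0.94 with *Lad1* and 0.92 each with *Map3k21* and *St8sia1* for *Gad1*, and 0.92, 0.91 and 0.88 with *Arid2*, *Gpsm1* and *Chst12* for *Slc30a8*. For *Ptprn* they were 0.96 with *Srm*, 0.95 with *Gaa* and 0.94 with *Dad1*, and for *Ptprn2* 0.97 with *Casr* and 0.96 each with *Sphkap* and *Anpep*. For *Ica1* they were 0.93 with *Rpl21* and 0.92 each with *Taf1b* and *Gpatch11*. No gene was among the top 3 of more than 1 member.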

How the data were processed

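The authors made strand-specific libraries from 5 ng of total RNA with random primers and depletion of ribosomal RNA, read 75 bases from both ends, mapped them with STAR 2.5.2b to GRCm38.p6 (GenCode M23) and quantified genes with RSEM, whose version is not given in the sources used here. The deposited expected counts are estimates per gene and are not normalized. They were rounded to whole numbers. The deposited TPM were scaled by the authors' RSEM to transcript length and to the same total in every library. The methods include a batch term whose meaning they do not state, and the replicate number of the labels stood in for it. How duplicate reads were treated is not given in the sources used here.

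The 6 members and all gene lists were chosen with earlier results of these data known. Genes were kept with edgeR's filterByExpr (count minimum 10), which left 16252. edgeR 4.0.16 (R 4.3.3) fitted condition and replicate number to all 11 libraries with TMM and a robust quasi-likelihood fit, and each comparison's p-values received a Benjamini-Hochberg adjustment across the tested genes (threshold 0.05). The common biological coefficient of variation was 0.258. Intervals of fold changes are 95% intervals from the fit. Standard deviations are of CPM or TPM between libraries. Alternatives used DESeq2 1.42.0 and limma 3.58.1, and other steps Python 3.11.15, pandas 2.3.3, numpy 2.4.6, scipy 1.17.1 and matplotlib 3.10.9. Positions come from GENCODE M21 on GRCm38, numbers of transcripts from the authors' RSEM output and promoter sequences from RefSeq. Named genes are all members, up to 3 genes of a list by p in a comparison (a few others, such as *Abat*, *Pick1* and *Ins1*, were named after their values were seen), and for each member the 3 most correlated genes. No 2 libraries of a group agreed within sampling noise.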

Additional observations from a re-analysis of the deposited data

Results flagged for a closer look

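In control cells, the level of *Ptprn2* in replicate 1 stood apart from the other libraries of its group, with 472 CPM against 632 to 649 CPM in replicates 2 to 4. The gap to the nearest library was 0.903 of the range of the group, above Dixon's 95% critical value for 4 libraries. Of 28 sets of 4 libraries examined, this was 1, and chance alone marks about 1 set in 20. The same library had the lowest *Ptprn* level of the control cells, 475 CPM, and the highest mitochondrial share, 13.3%. Their part in the low level was not tested. Without control replicate 1 the log2 fold change of *Ptprn2* in PD-L1high versus control cells was -0.23, against -0.18 with it, and edgeR's adjusted p was 0.895.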

How the results depend on the processing

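Of 15 log2 fold changes of members, 9 kept their direction under all 23 alternatives, and 13 of 345 recomputed values turned. In PD-L1high versus control cells, leaving out 1 library gave -0.055 to 0.186 for *Ptprn* (-0.052 and -0.055 without PD-L1high or control replicate 1) and -0.053 to 0.071 for *Ica1* (0.017 without PD-L1high replicate 2, 0.071 without control replicate 2), and log2(TPM + 1) gave 0.09 for *Ica1*. In PD-L1low versus control cells it gave -0.146 to 0.006 for *Ptprn2* (0.006 without PD-L1low replicate 4) and -0.03 to 0.13 for *Ica1* (-0.03 and -0.001 without PD-L1low or control replicate 4). *Ptprn2* there had 0.001 with no replicate block and 0.004 with DESeq2 and no replicate block. In PD-L1high versus PD-L1low cells *Ica1* had -0.108 to 0.023 (0.023 without PD-L1low replicate 4), and on log2(TPM + 1) *Ptprn2* had 0.005 and *Ica1* 0.071. The cause was not tested.

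Member counts were 0 in 70 of 72 recomputed values and 1 with DESeq2 or limma-voom (both with the replicate number) in PD-L1high versus control cells. The 161 genes called there became 328 with no filter on low counts, 249 with DESeq2, 249 with limma-voom, and 110 to 269 when 1 library was left out, the highest without control replicate 2. The 13 of PD-L1low versus control cells became 20 with library size only, 91 with no filter, 47 with DESeq2, 22 with DESeq2 and no replicate block, 23 with limma-voom, 33 with only the 2 groups compared, and 8 to 43 with 1 library left out. The 119 of PD-L1high versus PD-L1low cells became 76 at an adjusted p under 0.01, 354 with no filter, 203 with DESeq2, 180 with limma-voom, and 64 to 143 with 1 library left out.

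Whether the replicate numbers pair the libraries is not given in the sources used here, and the data did not settle it. Deviations from the group means correlated at -0.329 to 0.408 in 10 pairs with the same number, of which 9 were above 0 and 6 over 0.1, and at -0.352 to 0.334 in 30 other pairs, of which 12 were above 0 and 7 over 0.1. With no replicate block 127, 12 and 88 genes were called in the 3 comparisons. At this depth, differences in *Gad2* could not be detected.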
